A study of Mus musculus with 23 samples.

Results

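This account describes 35 genes of lysosomal enzymes and membrane proteins in primary endothelial cells of the mouse aorta (MAOEC, the vessel's inner lining) kept for 48 h with mouse plasma. The genes were taken as a list of known lysosomal proteins with the sterol and lipoprotein route in view. A gene was included when the annotation of the array platform gave its symbol, and all 35 listed genes were found among the 24704 named genes of the array. The medium held 10% plasma in place of serum. The plasma donors lacked apolipoprotein E alone (ApoE-KO, n = 5 arrays), together with Stabilin-1 (ApoE-Stab1-KO, n = 6) or together with Stabilin-2 (ApoE-Stab2-KO, n = 6), or were wildtype (n = 6). All knockout donors thus lacked apolipoprotein E and had eaten Western diet for 8 weeks, while the wildtype donors' diet is not in the labels. In every comparison with wildtype plasma, genotype and diet therefore cannot be told apart. The strain is given as C57BL/6J in every group, the genotypes belong to the plasma donors and not to the cells, and the donors' age, the number of donors and any pooling of plasma are not stated in the labels. Nothing in the labels says that replicates were separate cultures or donors, so p-values rest on the spread among these arrays, which may be technical. The values are deposited log2 levels of total RNA from whole cultures, in which fewer cells of a type and less RNA per cell cannot be told apart.

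Lysosomes are acid compartments in which hydrolases break down proteins, sugars and lipids brought in by endocytosis. Cells that take up lipoproteins free their cholesterol there: lysosomal acid lipase, encoded by Lipa, splits the cholesteryl esters, and NPC1 in the lysosomal membrane passes the cholesterol on. Many lysosomal genes carry an E-box of the so-called CLEAR type near their start, to which the transcription factor TFEB binds, and this factor is known to raise their transcription when it enters the nucleus. The comparisons ask how the genes of this compartment differ between cells given ApoE-KO plasma and cells given wildtype plasma, and whether the further loss of a Stabilin in the donor alters that. Stabilin-1 and Stabilin-2 are clearance receptors of sinusoidal endothelium.

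Sites with the letters of the CLEAR core or of the wider E-box are shown for 5 of these genes. CLEAR-type sites are the stretch through which the group is thought to be controlled together. The core searched was TCACGTGA, and the wider E-box was CACGTG. Both read the same on either strand, and every core also holds the E-box. The stretches of Ctsd, Gla and Mcoln1 hold the core, and those of Lamp1 and Naglu hold the E-box without the core. The stretches are from RefSeq on build GRCm38.p6, run 5′ to 3′ along the gene's strand, end before the gene's annotated start and have the sites in capitals.
Ctsd, chr7:142387899-142387946, minus strand: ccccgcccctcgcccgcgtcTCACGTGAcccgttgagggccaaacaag
Gla, chrX:134601173-134601253, minus strand: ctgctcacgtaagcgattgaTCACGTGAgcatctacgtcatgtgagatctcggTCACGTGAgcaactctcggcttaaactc
Mcoln1, chr8:3500428-3500500, plus strand: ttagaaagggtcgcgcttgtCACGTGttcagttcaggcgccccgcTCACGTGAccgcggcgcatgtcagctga
Lamp1, chr8:13159080-13159160, plus strand: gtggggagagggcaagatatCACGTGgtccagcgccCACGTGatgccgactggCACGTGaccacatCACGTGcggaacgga
Naglu, chr11:101070001-101070046, plus strand: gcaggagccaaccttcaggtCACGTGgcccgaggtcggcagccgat

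Promoters, taken as 250 bases before to 50 bases after an annotated start, were at hand for 32 of the 35 genes. Npc1, Ctsb and Ctsh had none. The core lay in 4 of them (12.5%), those of Ctsa, Ctsd, Gla and Mcoln1 (for Ctsa, at a start inside the annotated gene), against 1.11% of the 26993 other genes with a promoter. The E-box lay in 10 of 32 (31.2%), against 8.06% of the other genes. Besides the 4 genes with the core, these were Lamp1, Ctsf, Ctsl, Gaa, Glb1 and Naglu. For Ctsl, too, the start was inside the annotated gene, and so was its E-box. The printed stretch of Lamp1 held 4 E-boxes and that of Gla 2 cores. These are matches of letters and were not tested as binding sites in these cells.

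Of the 35 genes, 31 lay above 4.31, the median level of the arrays, and 4 lay below it. Levels of different probe sets are not comparable as amounts of RNA, so the levels below place each gene on the array and give no order of abundance. The 4 membrane proteins had mean levels of 8.79 (Cd63, a tetraspanin of late endosomes and lysosomes) to 11.8 (Lamp1, a heavily glycosylated protein of the lysosomal membrane), with Scarb2, the receptor that brings glucocerebrosidase to lysosomes, and Lamp2 at 10.2 and 10.4. The 11 glycosidases and glycosaminoglycan enzymes lay at 7.32 (Manba, beta-mannosidase) to 10.4 (Hexa, the alpha subunit of beta-hexosaminidase). The 5 genes of lipid and lipoprotein handling lay at 8.46 (Smpd1, acid sphingomyelinase) to 11.7 (Psap, the precursor of the saposins). Of 11 cathepsin genes, 7 lay above the median, up to 12.2 for Ctsd, an aspartic protease. The other 4 were Ctss (3.21), Ctsc (3.42), Ctsf (3.58) and Ctsk (3.77), cathepsins of which Ctss is best known from antigen-presenting cells and Ctsk from osteoclasts. Among the last 4 genes, Grn, encoding progranulin, lay at 12.1, the tripeptidyl peptidase Tpp1 at 11.4, the calcium channel gene Mcoln1 at 9.30 and Tfeb itself at 4.96, close to the median.

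The 12 endothelial markers all lay above the array median, from 8.27 for Vwf to 12.8 for Cdh5. Of 9 macrophage markers measured, 7 lay below it, among them Ptprc (2.98), Adgre1 (3.25) and Csf1r (3.78). The 2 above it were Fcer1g (4.47) and Cd68 (11.2), whose protein is itself lysosomal. Among markers of smooth muscle 3 of 6 lay above the median (Acta2, Smtn and Des), and among those of fibroblasts 2 of 6 (Col1a1 and Pdgfra).

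Of the 12 endothelial markers, limma called 2 in ApoE-KO minus wildtype plasma (0.530% of all genes). It called 1 in ApoE-Stab1-KO minus wildtype plasma (0.364% of all genes) and 0 in ApoE-Stab2-KO minus wildtype plasma (0.178% of all genes). An unadjusted p under 0.05 was reached by 4, 5 and 3 of the 12 in turn, against 10.5%, 11.3% and 8.49% of all genes. Egfl7, a secreted endothelial protein, averaged 11.68 with ApoE-KO plasma and 11.95 with wildtype plasma, and fell by 0.27 on the log2 scale (adjusted p = 0.00136). The tight junction gene Cldn5 averaged 10.87 with ApoE-KO plasma and 11.13 with wildtype plasma, and fell by 0.27 (adjusted p = 0.0459). In that comparison 11 of the 12 differences were below 0. The number below 0 was 7 of 12 with ApoE-Stab1-KO plasma and 8 of 12 with ApoE-Stab2-KO plasma. The mean of all 12 ran from 10.99 to 11.18 in the ApoE-KO arrays, from 11.02 to 11.20 in the ApoE-Stab1-KO arrays, from 11.14 to 11.23 in the ApoE-Stab2-KO arrays and from 11.16 to 11.22 in the wildtype arrays, which overlapped. Egfl7 was also lower with ApoE-Stab1-KO than with wildtype plasma (-0.21, adjusted p = 0.0122), and Emcn was lower with the mean of the 3 knockout plasmas (-0.13, adjusted p = 0.0452). Vwf, encoding von Willebrand factor, had the highest difference from wildtype among the markers with ApoE-Stab1-KO plasma (0.27, adjusted p = 0.414) and with ApoE-Stab2-KO plasma (0.43, adjusted p = 0.231), and passed in neither. Of the markers of macrophages, smooth muscle and fibroblasts, limma called 0 in each comparison with wildtype plasma. At an unadjusted p under 0.05 in ApoE-KO minus wildtype plasma there were 2 of 9 macrophage, 1 of 6 smooth muscle and 1 of 6 fibroblast markers, against 10.5% of all genes. The macrophage markers averaged 4.45 to 4.55 in the ApoE-KO arrays and 4.42 to 4.49 in the wildtype arrays. The part of these shifts in the lysosomal values was not tested.

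The lysosomal genes differed by small amounts between plasma groups. The highest group mean exceeded the lowest by 0.03 (1.02-fold, Gaa) to 0.20 log2 units (1.15-fold, Neu1), with a median over the genes of 0.08, against 0.11 over all 24704 genes. The SD within groups was 0.04 (Ctsz) to 0.18 (Ctso), with a median of 0.08, against 0.12 over all genes, and in 17 of 35 genes (48.6%, against 52.6% of all genes) the range of the group means was smaller than the gene's own SD. In the limma moderated F-test over the 4 groups, 0 of 35 genes had an adjusted p under 0.05, against 0.546% of all genes. At an unadjusted p under 0.05 there were 2, Neu1 (adjusted p = 0.311) and Npc1 (adjusted p = 0.391), against 11.9% of all genes.

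Averaged over the 35 genes, single arrays stood at 8.90, 8.93, 8.85, 8.91 and 8.92 with ApoE-KO plasma. The arrays with ApoE-Stab1-KO plasma ran from 8.85 to 8.90 (median 8.89), those with ApoE-Stab2-KO plasma from 8.86 to 8.91 (median 8.88) and those with wildtype plasma from 8.82 to 8.93 (median 8.86). The 4 groups overlapped, and the wildtype arrays covered the range of all the others.

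**Figure D1:**
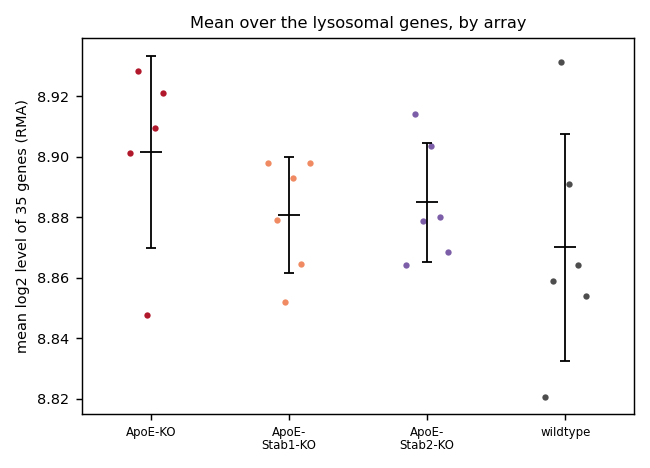
Mean deposited log2 level of the 35 lysosomal genes (vertical axis) in each array, by plasma group (horizontal axis). Points are arrays, and the bar with whiskers is the group mean ± SD: 8.90 ± 0.03 for ApoE-KO, 8.88 ± 0.02 for ApoE-Stab1-KO, 8.88 ± 0.02 for ApoE-Stab2-KO and 8.87 ± 0.04 for wildtype plasma, with overlapping arrays throughout.

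ApoE-KO plasma, set against wildtype plasma, left the lysosomal genes without a called change. By limma over all genes, 0 of 35 were called higher and 0 lower, where 0.530% of all genes were called. Differences from wildtype were small in both directions, from -0.10 (Mcoln1) to 0.17 (Neu1). In all, 23 of 35 were above 0 with a median of 0.04, against 51.2% of all genes above 0 and a median of 0.00 over them. At an unadjusted p under 0.05 there were 3 of 35 genes, all higher, while 10.5% of all genes were under that limit. The 95% intervals of the differences stayed within 1.2-fold either way for 32 of 35 genes (91.4%, against 70.3% of all genes) and within 1.5-fold for all 35, with the farthest bound at 1.26-fold for Ctso, a cysteine cathepsin. These shares also depend on the SE, whose median was 0.054 over the members and 0.070 over all genes. The median absolute difference was 0.055 over the members and 0.057 over all genes.

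The 3 genes with the smallest p were Neu1, Npc1 and Naglu. Neu1 encodes the lysosomal sialidase, which trims sialic acid from glycoproteins and glycolipids. Its log2 level was 7.72, 7.85, 7.66, 7.75 and 7.63 with ApoE-KO plasma, and 7.46 to 7.71 (median 7.54) with wildtype plasma. The ApoE-KO arrays stood higher on average but overlapped those of wildtype, and the difference was 0.17 ± 0.06 (SE, 95% interval 0.04 to 0.30, adjusted p = 0.306). Npc1, the exporter of cholesterol from the lysosome, stood at 9.10, 9.11, 9.11, 9.18 and 9.14 with ApoE-KO plasma, and at 8.84 to 9.08 (median 8.98) with wildtype plasma. These arrays did not overlap, and the difference was 0.15 ± 0.06 (SE, 95% interval 0.03 to 0.27, adjusted p = 0.35). Ctsz, a cathepsin with carboxypeptidase activity, was the other of 2 genes whose arrays did not overlap, with levels of 10.27 to 10.31 with ApoE-KO plasma and 10.32 to 10.37 with wildtype plasma and a difference of -0.06 ± 0.03 (adjusted p = 0.582). Such separation was seen in 1.98% of all genes, and counting it was decided after the values were seen. Naglu, which removes N-acetylglucosamine from heparan sulfate, stood at 8.78, 8.91, 8.84, 8.63 and 8.82 with ApoE-KO plasma and at 8.48 to 8.84 (median 8.68) with wildtype plasma, a difference of 0.12 ± 0.06 (adjusted p = 0.444) with overlapping arrays.

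The other lipid genes showed smaller differences. Lipa, the acid lipase gene, stood at 10.86, 10.84, 10.73, 10.86 and 10.86 with ApoE-KO plasma and at 10.78 to 10.94 (median 10.88) with wildtype plasma, a difference of -0.04 ± 0.04 whose 95% interval (-0.13 to 0.05) lay between 0.916- and 1.03-fold. Without ApoE-KO replicate 3, the lowest of those arrays, the difference was -0.02. Ppt1, which takes palmitate off proteins, differed by 0.10 ± 0.05 (adjusted p = 0.539). Among membrane proteins, Lamp1 stood at 11.74, 11.80, 11.85, 11.81 and 11.73 with ApoE-KO plasma, against 11.76 to 11.98 (median 11.89) with wildtype plasma, a difference of -0.09 ± 0.05 (adjusted p = 0.551). The cysteine cathepsin gene Ctsb differed by 0.08 ± 0.04 (adjusted p = 0.517), and Mcoln1 by -0.10 ± 0.05 (adjusted p = 0.551). None of these passed the threshold, and Ctsb differed by 0.05 without wildtype replicate 1. Tfeb had 4.90, 5.02, 4.88, 5.10 and 4.98 with ApoE-KO plasma and 4.81 to 5.17 (median 4.92) with wildtype plasma, a difference of 0.03 ± 0.08 that lay between 0.00 and 0.08 with single arrays left out. The level of its mRNA gives no measure of the protein's place in the cell.

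The size of these differences can be set beside genes of the sterol response on the same arrays. Msmo1, an enzyme of cholesterol synthesis, rose by 0.69 (95% interval 0.56 to 0.81, adjusted p = 2.85e-06). Hmgcs1, of the same route, averaged 9.89 ± 0.10 in the 5 ApoE-KO arrays and 9.36 ± 0.09 in the 6 wildtype arrays (SD), a difference of 0.53 with a 95% interval of 0.42 to 0.65 (adjusted p = 1.22e-05). The highest bound of any of the 35 lysosomal genes in that comparison was 0.33, so that all their intervals lay below those of Msmo1 and Hmgcs1. The cholesterol exporter gene Abca1 was lower, at 7.93 ± 0.26 in the ApoE-KO arrays and 8.37 ± 0.07 in the wildtype arrays (SD), a difference of -0.44 (95% interval -0.60 to -0.28, adjusted p = 0.00654). Its adjusted p was 0.0852 with only the groups compared in the fit, and 9.82e-06 without ApoE-KO replicate 1. The lowest difference among the lysosomal genes was -0.10.

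**Figure D2:**
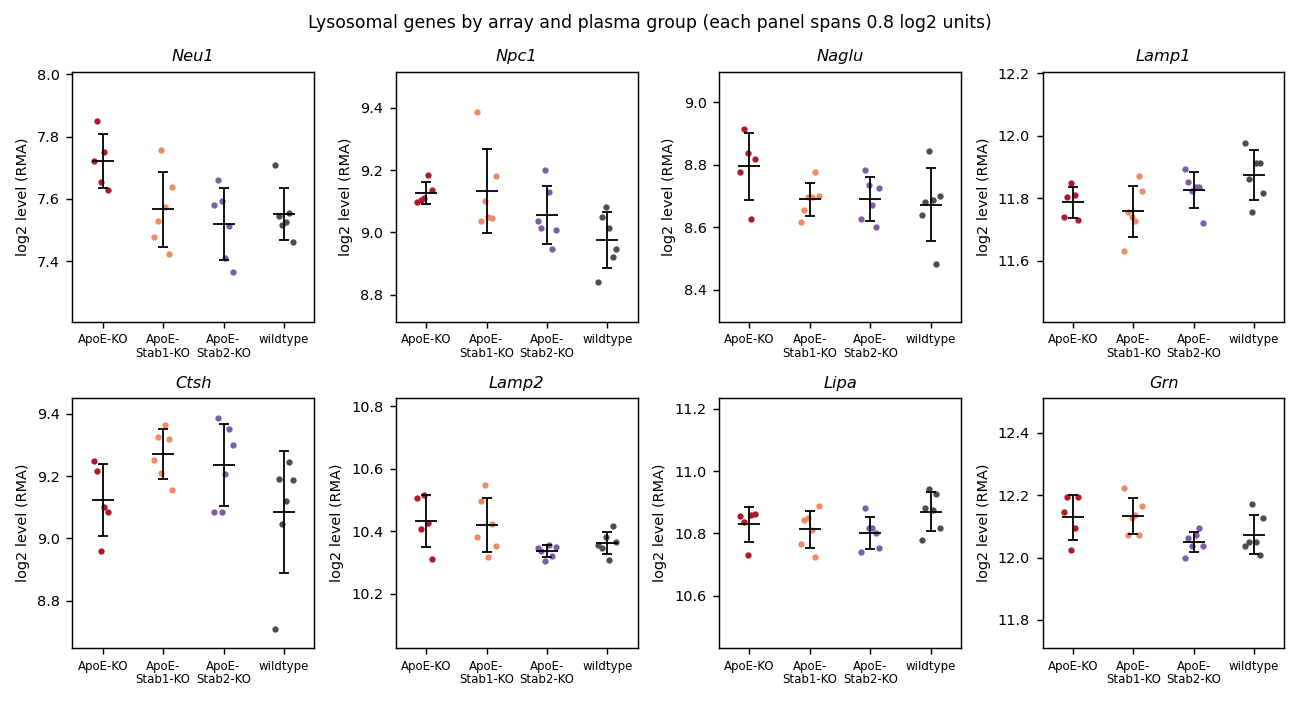
Deposited log2 levels (vertical axes, each spanning 0.8 log2 units) of Neu1, Npc1, Naglu, Lamp1, Ctsh, Lamp2, Lipa and Grn in each array, by plasma group (horizontal axes). Points are arrays and bars with whiskers are group means ± SD: Neu1 is highest with ApoE-KO plasma (7.72, against 7.55 with wildtype plasma), the ApoE-KO arrays of Npc1 lie above all wildtype arrays, and the Lipa groups overlap.

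The double-knockout plasmas gave the same count of calls against wildtype plasma. With ApoE-Stab1-KO plasma, 0 of 35 genes passed in either direction (0.364% of all genes), and differences ran from -0.12 (Lamp1) to 0.19 (Ctsh) with a median of 0.00. Unadjusted, 3 of 35 were under 0.05, against 11.3% of all genes. These were Npc1, Lamp1 and Ctsh. Npc1 ran from 9.04 to 9.39 (median 9.08) with ApoE-Stab1-KO plasma and from 8.84 to 9.08 with wildtype plasma, a difference of 0.16 ± 0.06 (adjusted p = 0.274). Lamp1 ran from 11.63 to 11.87 (median 11.75) with ApoE-Stab1-KO plasma, against 11.76 to 11.98 with wildtype plasma, and differed by -0.12 ± 0.04 (adjusted p = 0.309). For both genes the groups overlapped, as they did for all members in this comparison, where 0.854% of all genes had separate arrays.

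Ctsh, an aminopeptidase among the cathepsins, ran from 9.16 to 9.36 (median 9.29) with ApoE-Stab1-KO plasma and from 8.71 to 9.25 (median 9.15) with wildtype plasma, and differed by 0.19 ± 0.08 (adjusted p = 0.35). The lowest of these values belonged to wildtype replicate 1, and without that array the difference was 0.11 (adjusted p = 0.583). Scarb2 (0.09), the alpha-mannosidase gene Man2b1 (0.09) and the cysteine cathepsin gene Ctsl (-0.09) were next by p and did not pass. Without ApoE-Stab1-KO replicate 1, Scarb2 differed by 0.06 and Ctsl by -0.06.

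With ApoE-Stab2-KO plasma, 0 of 35 genes passed against wildtype plasma (0.178% of all genes), and differences ran from -0.08 (Gusb) to 0.15 (Ctsh) with a median of 0.02. Gusb, the beta-glucuronidase, was the 1 gene under an unadjusted 0.05, where 8.49% of all genes were. It ran from 9.70 to 9.78 (median 9.75) with ApoE-Stab2-KO plasma and from 9.74 to 9.95 (median 9.81) with wildtype plasma, a difference of -0.08 ± 0.04 (adjusted p = 0.567). In no member did the arrays separate, as they did in 1.15% of all genes. Ctsd (0.08 ± 0.04), Lipa (-0.07 ± 0.04), the beta-galactosidase gene Glb1 (0.07 ± 0.05) and Cd63 (-0.08 ± 0.05) were next by p, together with Ctsh (0.15 ± 0.08), whose value without wildtype replicate 1 was 0.08. Cd63 differed by -0.05 without that array, and Glb1 by 0.04 without ApoE-Stab2-KO replicate 3.

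Setting the mean of the 3 knockout plasmas against wildtype plasma uses the most arrays. Again 0 of 35 genes passed (0.777% of all genes), and 2 of 35 were under an unadjusted 0.05 (10.9% of all genes). These were Npc1 (0.13 ± 0.05, adjusted p = 0.271) and Lamp1 (-0.08 ± 0.04, adjusted p = 0.411). The 95% intervals lay within 1.2-fold for 34 of 35 genes, Ctso being the exception. The comparisons with wildtype plasma share the wildtype arrays, so their values are not independent of each other.

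The comparisons between knockout plasmas ask what the loss of a Stabilin in the donor adds. With ApoE-Stab1-KO plasma, 0 of 35 genes were called against ApoE-KO plasma (0.00405% of all genes), and 1 of 35 was under an unadjusted 0.05 (5.57% of all genes). This was Neu1, which ran from 7.42 to 7.76 (median 7.55) with ApoE-Stab1-KO plasma, against 7.63 to 7.85 with ApoE-KO plasma, a difference of -0.15 ± 0.06 (95% interval -0.28 to -0.02, adjusted p = 0.864). The median difference over the members was -0.03, with 24 of 35 below 0. Ctsh (0.15 ± 0.08), Naglu (-0.11 ± 0.06), Man2b1 (0.08 ± 0.05), Ctsf (-0.08 ± 0.06) and Ctsk (-0.09 ± 0.06) were next by p, and the last 2 were among the 4 genes under the array median. Ctsf differed by -0.05 without ApoE-Stab1-KO replicate 3, and Ctsk by -0.06 without ApoE-KO replicate 5. No member separated the groups, as 0.368% of all genes did.

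With ApoE-Stab2-KO plasma, 0 of 35 genes were called against ApoE-KO plasma (0.0243% of all genes), and 2 of 35 were under an unadjusted 0.05 (8.36% of all genes), both lower. Neu1 ran from 7.36 to 7.66 (median 7.55) with ApoE-Stab2-KO plasma, against 7.63 to 7.85 with ApoE-KO plasma, and differed by -0.20 ± 0.06 (95% interval -0.33 to -0.07, adjusted p = 0.34), the widest difference of any member in any pairwise comparison over all arrays. Lamp2, a membrane protein needed for the fusion of autophagosomes with lysosomes, ran from 10.30 to 10.36 (median 10.34) with ApoE-Stab2-KO plasma, against 10.51, 10.41, 10.52, 10.43 and 10.31 with ApoE-KO plasma, a difference of -0.10 ± 0.04 (adjusted p = 0.569). The highest and lowest arrays of these groups overlapped in both genes, and 1.33% of all genes separated. Grn (-0.08 ± 0.04), Naglu (-0.10 ± 0.06), Ctsz (0.06 ± 0.03) and Manba (-0.13 ± 0.08) followed by p. Without ApoE-KO replicate 3, in which Manba was lowest, it differed by -0.22 (adjusted p = 0.476). Because Neu1 was highest with ApoE-KO plasma, and its comparisons share those 5 arrays, the differences from wildtype, ApoE-Stab1-KO and ApoE-Stab2-KO plasma are not separate observations.

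Between ApoE-Stab2-KO and ApoE-Stab1-KO plasma, 0 of 35 genes passed (0.0486% of all genes), 0 were under an unadjusted 0.05 (11.0% of all genes) and none separated the arrays (0.806% of all genes). Differences ran from -0.10 (Man2b1) to 0.11 (Ctsk), and all 35 intervals lay within 1.2-fold, with the farthest bound at 1.19-fold (Ctsc). Grn (-0.08 ± 0.04, adjusted p = 0.456), Man2b1 (-0.10 ± 0.05, adjusted p = 0.459), Ctsd (0.08 ± 0.04, adjusted p = 0.473), Lamp2 (-0.08 ± 0.04) and Lamp1 (0.07 ± 0.04) were among the smallest p. Lamp1 differed by 0.04 without ApoE-Stab1-KO replicate 1.

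**Figure D3:**
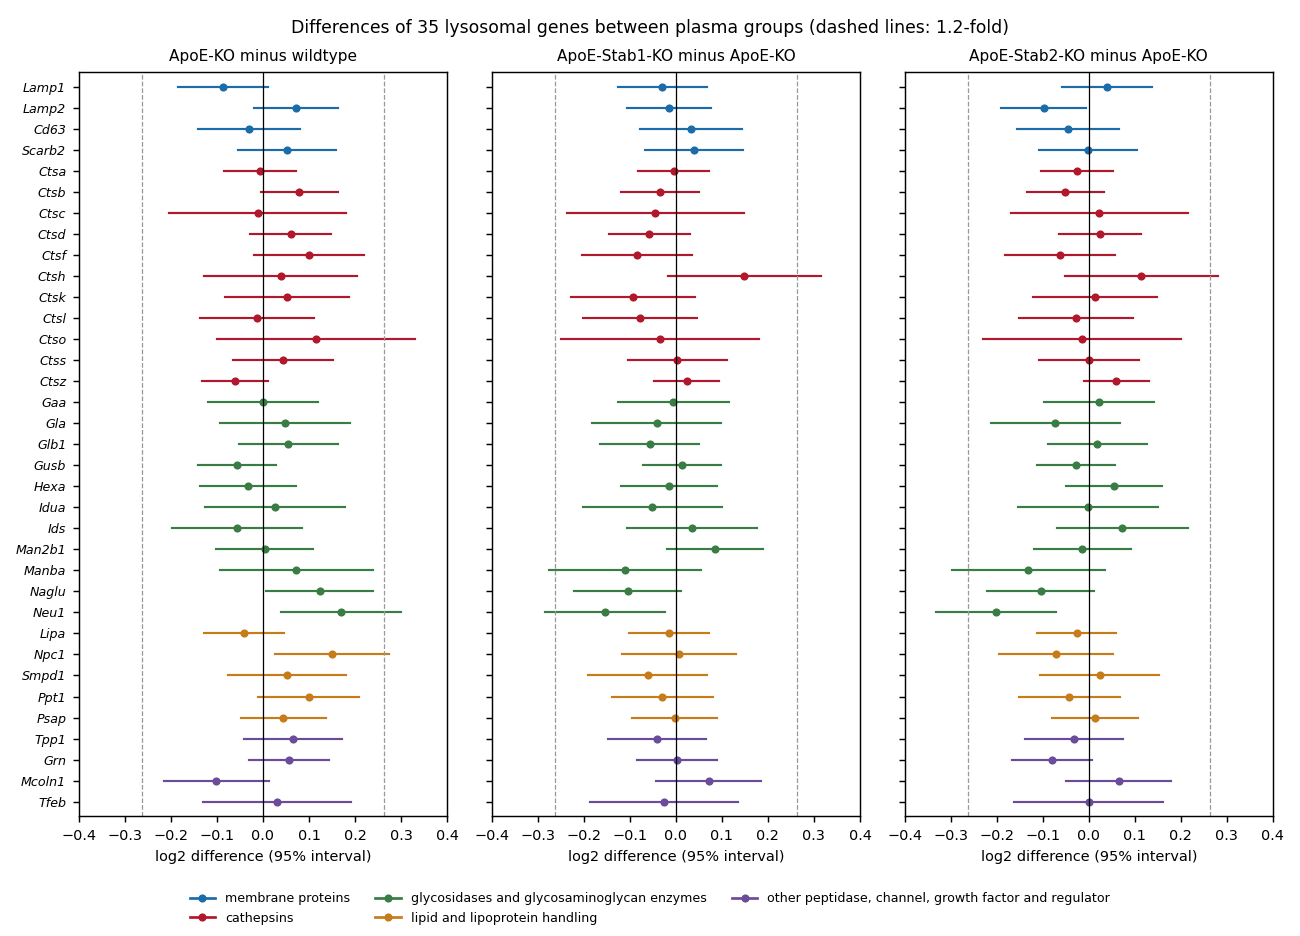
Log2 differences (horizontal axes) of the 35 lysosomal genes (rows, coloured by role) for ApoE-KO minus wildtype, ApoE-Stab1-KO minus ApoE-KO and ApoE-Stab2-KO minus ApoE-KO plasma. Points are limma estimates, lines are 95% intervals and dashed lines mark 1.2-fold either way: 32 of 35 intervals stay inside these in each panel, and Neu1 lies at 0.17, -0.15 and -0.20.

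Members were also set apart by their promoter letters, as a description. Npc1, Ctsb and Ctsh, for which no promoter was at hand, are in none of these sets. In ApoE-KO minus wildtype plasma, the 4 genes with the core differed by -0.10 to 0.06 (median 0.02), the 6 with an E-box alone by -0.09 to 0.12 (median 0.03) and the 22 with neither by -0.06 to 0.17 (median 0.04). Printed genes lay at both ends, with Mcoln1 (-0.10) and Lamp1 (-0.09) the lowest members and Naglu (0.12) the third highest. In ApoE-Stab1-KO minus ApoE-KO plasma, all 6 genes with an E-box alone lay below 0 (-0.11 to -0.01, median -0.07), against medians of -0.02 for the core and -0.02 for neither. Of all 35 members, 24 lay below 0 in that comparison. In ApoE-Stab2-KO minus ApoE-KO plasma the medians were 0.00 for the core, 0.00 for an E-box alone and -0.01 for neither. In ApoE-Stab2-KO minus ApoE-Stab1-KO plasma, all 6 with an E-box alone lay above 0 (0.00 to 0.07, median 0.04), against medians of -0.01 for the core and 0.00 for neither. Of all 35 members, 18 lay above 0 there. The comparisons of ApoE-Stab1-KO plasma with ApoE-KO and with ApoE-Stab2-KO plasma share the ApoE-Stab1-KO arrays, and no difference between the sets was tested.

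Further lysosomal genes outside the 35 were examined as 5 lists, of which 80 of 87 genes were measured and 7 were not analysed here. They comprise the subunits of the V-ATPase, the proton pump that acidifies lysosomes (14 of 16), other hydrolases and activators (17 of 22), other membrane proteins and transporters (17), genes of sorting to lysosomes (19) and genes that control lysosomal transcription and mTORC1 (13). In each of the 7 comparisons, limma called 0 of these 80 genes, where 0.00405% to 0.777% of all genes were called. Unadjusted, 11 of 80 were under 0.05 in ApoE-KO minus wildtype plasma, 10 of them higher, which is 13.8% against 10.5% of all genes, and the median difference was 0.03. The count was 7 of 80 in ApoE-Stab1-KO minus wildtype (8.75%, against 11.3% of all genes) and 3 in ApoE-Stab2-KO minus wildtype (3.75%, against 8.49%). It was 4 in ApoE-Stab1-KO minus ApoE-KO (5%, against 5.57%) and 7 in ApoE-Stab2-KO minus ApoE-KO (8.75%, against 8.36%). In ApoE-Stab2-KO minus ApoE-Stab1-KO it was 3 (3.75%, against 11.0%), and for the mean of the knockout plasmas 11 (13.8%, against 10.9%). The values of single genes that follow are all from ApoE-KO minus wildtype plasma. The smallest p there belonged to Slc17a5, the lysosomal exporter of sialic acid (0.22 ± 0.06, adjusted p = 0.113). Next was Gnptab, the enzyme that builds the mannose 6-phosphate tag of lysosomal hydrolases (0.28 ± 0.08, adjusted p = 0.122). With array weights Gnptab passed (0.30, adjusted p = 0.0416). The other genes with the smallest p of each list were the carboxypeptidase gene Scpep1 (0.17 ± 0.06, 0.233 adjusted), the sulfatase gene Arsb (0.15 ± 0.05, 0.299), the transporter gene Slc29a3 (0.19 ± 0.07, 0.241), the GTPase gene Rragd (0.16 ± 0.05, 0.219), the V-ATPase genes Atp6v1b2 (0.12 ± 0.05, 0.321) and Atp6v0a1 (0.10 ± 0.05), the adaptor gene Gga2 (0.16 ± 0.07, 0.397) and the mTORC1 gene Rptor (-0.09 ± 0.06, 0.65). None of these passed, and Rptor differed by -0.04 without wildtype replicate 1.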

How the data were processed

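The 23 arrays measured biotin-labelled cRNA of the cells, and groups came from the labels. The deposited log2 values were made with RMA, per the submitters' processing notes, which equalizes the distribution of all arrays, so changes are relative to the other genes. Its version and probe annotation are not stated in the labels. Probe sets with 1 symbol numbered 24705 of 25428, 723 had none, and the brighter of 2 was kept for the 1 repeated symbol.

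All differences are from limma 3.58.1 (R 4.3.3; lmFit and eBayes, 19 residual and 4.19 prior degrees of freedom, no filter), with 1 mean per group over all arrays and Benjamini-Hochberg adjustment over 24704 genes. Intervals are 95% and not adjusted. A gene is called at an adjusted p under 0.05. Arrays correlated at 0.992 to 0.997, and their number limits the precision. ApoE-KO replicate 1 is deposited with finer decimals than the other arrays, and the calls of each comparison with ApoE-KO plasma were also counted without it. The fit was also run on simulated data, with added shifts larger than any pairwise difference of a member. That run therefore does not show whether differences of the members' size would be called. Promoter letters were searched in Python 3.11.15 and figures drawn with matplotlib 3.10.9. The 35 genes, companion lists and named-gene rule (called genes, the 6 smallest p per pairwise comparison, the 3 highest and 3 lowest levels, Lipa, Npc1, Lamp1 and Tfeb, and the 2 smallest p per companion list) were chosen with earlier results of these data known.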

Additional observations from a re-analysis of the deposited data

Results flagged for a closer look

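In 5 of 88 group-by-gene sets tested among 22 named genes, 1 array stood far from the rest of its group, and chance alone would mark about 1 in 20 sets. In wildtype replicate 1, Ctsh stood at 8.71, against 9.05 to 9.25 in the other wildtype arrays, and Ctsl at 10.26, against 10.45 to 10.55. In ApoE-KO replicate 3, Lipa stood at 10.73, against 10.84 to 10.86 in the other ApoE-KO arrays, and Manba at 7.06, against 7.44 to 7.54. In ApoE-Stab1-KO replicate 3, Ctsf stood at 3.37, against 3.54 to 3.63, below the median level of the arrays.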

How the results depend on the processing

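The count of lysosomal genes called was 0 in all 7 comparisons and in the F-test, and in all 184 alternative values computed. These were quantile normalization again, arrays centred on their median, genes above the median level (31 of the 35), trended and robust eBayes, array weights, the replicate block, each probe set on its own, a fold of at least 1.2 (not for the F-test), the compared groups alone (pairwise comparisons) and each array left out of the comparisons it enters. The lowest adjusted p of a member in any of these was 0.115 (Neu1, ApoE-KO minus wildtype, array weights). Not all of these settings were free to differ. The fold limit can only lower a count, so its 0 was fixed in advance. Sorted array values already lay within 0.00191 of those of a reference array, so normalizing or centring again could change little. Treating each probe set on its own concerned only 1 repeated symbol. After group means were taken off, 33 pairs with the same replicate number correlated at -0.096 to 0.106. Their median was 0.0121, against -0.00308 for pairs with other numbers, and 6 of 23 arrays correlated best with their own number. Whether arrays of the same number shared a culture is not in the labels and was not tested. With the replicate block 0 members were called, and all genes called were 91 for ApoE-KO minus wildtype (131 without it), 88 in the F-test (135), 0 for ApoE-Stab1-KO minus ApoE-KO (1) and 0 for ApoE-Stab2-KO minus ApoE-KO (6). The median member difference for ApoE-KO minus wildtype was 0.04, from 0.03 to 0.06 with an array left out, and no named difference changed sign. Counts at an unadjusted p under 0.05 moved more (3 in that comparison, 1 to 6 with an array left out). The others were 2 to 6 for ApoE-Stab1-KO minus wildtype (3), 0 to 3 for ApoE-Stab2-KO minus wildtype (1), 0 to 3 for ApoE-Stab1-KO minus ApoE-KO (1), 1 to 3 for ApoE-Stab2-KO minus ApoE-KO (2), 0 to 3 for ApoE-Stab2-KO minus ApoE-Stab1-KO (0), 1 to 5 for the mean of the knockouts (2) and 0 to 3 in the F-test (2). Counts over all genes also moved in ApoE-KO minus wildtype (131, against 55 to 109 with an array left out and 80 to 212 under the other settings). The other counts over all genes, with an array left out and then under the other settings, were 54 to 124 and 21 to 151 for ApoE-Stab1-KO minus wildtype (90), 20 to 41 and 34 to 63 for ApoE-Stab2-KO minus wildtype (44), 0 to 2 and 0 to 2 for ApoE-Stab1-KO minus ApoE-KO (1), 0 to 12 and 0 to 18 for ApoE-Stab2-KO minus ApoE-KO (6), 8 to 37 and 4 to 21 for ApoE-Stab2-KO minus ApoE-Stab1-KO (12), 102 to 234 and 141 to 248 for the mean of the knockouts (192) and 87 to 197 and 88 to 198 in the F-test (135). The cause was not tested. Abca1 missed the threshold with the compared groups alone (-0.44, adjusted p = 0.0852), a fit in which fewer arrays set the spread. Its adjusted p by limma was 9.82e-06 without ApoE-KO replicate 1. With single arrays left out the Abca1 difference lay between -0.55 and -0.39. What moved its adjusted p was not tested. The share of member promoters with a site was 12.5% for the core and 31.2% for the E-box. With 1 array platform and no scanner values, signal over background is unknown, which limits Ctss, Ctsc, Ctsf, Ctsk and Tfeb.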
